A study of Bos taurus and Sus scrofa with 10 samples.

Results

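The 10 genes described here are growth factors and receptors. The growth factors were chosen as known from oocytes (GDF9, BMP15, BMP6 and FGF8), although FGF8 had 0 reads in both oocyte libraries. The receptors are for oocyte or follicle signals (BMPR2, BMPR1A, BMPR1B, TGFBR1, ACVR1B and KIT). All 10 genes were chosen by symbol, and each symbol had 1 row in the cow table of 22845 genes and 1 row in the pig table of 21867 genes. RNA was profiled in cow (Bos taurus) and pig (Sus scrofa) at 5 stages: oocytes, embryos of 2-4 and of 8-16 cells, the morula, in which the cells compact, and the blastocyst, which has formed a cavity and a trophectoderm around its inner cells. Each stage of each species had 1 library, 10 in all, so differences between stages rest on single libraries and have no replicates to check them. The labels give no breed, age, treatment or number of oocytes or embryos per library. In bulk samples such as these, fewer cells of a type and less RNA per cell cannot be told apart.

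GDF9 and BMP15 are secreted members of the TGF-beta superfamily, made in mammals mainly by the oocyte, and they act on the granulosa and cumulus cells around it. Such ligands bind a pair of type I and a pair of type II serine/threonine kinase receptors, and the type I receptor phosphorylates Smad proteins that move to the nucleus. BMP15 is known to signal through BMPR2 and BMPR1B toward SMAD1 and SMAD5, and GDF9 through BMPR2 and TGFBR1 toward SMAD2 and SMAD3. KIT works the other way round: it sits on the oocyte and binds KIT ligand (KITLG) from the somatic cells of the follicle.

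Values are reads per 1000000 reads of a library (RPM), which are not divided by gene length, so they compare 1 gene between stages and not different genes. Read totals ranged from 3002751 in the pig morula library to 14182046 in the cow blastocyst library. Ranges in brackets are 95% Wilson intervals, which cover counting error only. At 0 reads the floor is 3 reads, which is between 0.212 RPM (cow blastocyst) and 0.999 RPM (pig morula). Mitochondrial reads took 2.74% to 30.2% of a cow library and 6.06% to 18.6% of a pig library, and a larger share lowers the RPM of all other genes.

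The oocyte and blastocyst labels were checked against markers. The 7 oocyte markers (such as ZP2 and MOS) summed to 4834 RPM in the cow oocyte library and 0.282 RPM in the cow blastocyst library, and the 5 in the pig table summed to 1648 and 2.14 RPM. The blastocyst markers (such as KRT8 and GATA3) went the other way, from 22.7 to 3012 RPM over 7 genes in cow and from 19.8 to 7234 RPM over 8 genes in pig. KRT8 and KRT18 made 3629 and 2681 RPM of the pig blastocyst sum, and NANOG had 0 reads in both of these pig libraries. Genes of granulosa and cumulus cells, which surround the oocyte, were also read. In the cow oocyte library 6 of 17 had 0 reads (AMHR2, CYP11A1, FOXL2, FST, INHA and LHCGR), and STAR, HAS2 and VCAN stood at 157, 141 and 116 RPM. In the pig oocyte library 6 of 14 had 0 reads (CYP11A1, INHA, INHBA, NR5A2, PTGS2 and TNFAIP6), and KITLG and VCAN stood at 106 and 101 RPM. The list summed to between 296 and 1029 RPM over the cow libraries and to between 167 and 2459.6 RPM over the pig libraries. Both blastocyst libraries had the highest sum, of which PTGS2 alone made 902 RPM in cow and 1809 RPM in pig. The part of these cells in the values below was not tested.

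From oocyte to blastocyst both oocyte ligands GDF9 and BMP15 fell in both species, while the receptors went different ways. Both ligands had 0 reads in the cow blastocyst library, and 15.3 and 5.09 RPM in that of pig. A gene was called changed when log2(RPM + 1) differed by at least 2 (4-fold on this scale, which understates the change of low genes), among genes with at least 1 RPM in one of both libraries. In cow 7 of the 9 members that could be compared fell and 0 rose: GDF9, BMP15, BMP6, BMPR2, BMPR1A, BMPR1B and ACVR1B. Over all 12738 compared cow genes 40.2% were called, 18.4% lower and 21.8% higher. In pig 4 of 9 fell (GDF9, BMP15, ACVR1B and KIT) and 1 rose (BMPR1B), against 45.2% called over 12512 genes, 19.2% lower and 25.98% higher. The median difference of the 9 members was -3.26 in cow, beside 0.18 over all compared genes, and -1.56 in pig, beside 0.43. FGF8 was too low to be compared in either species.

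**Figure D1:**
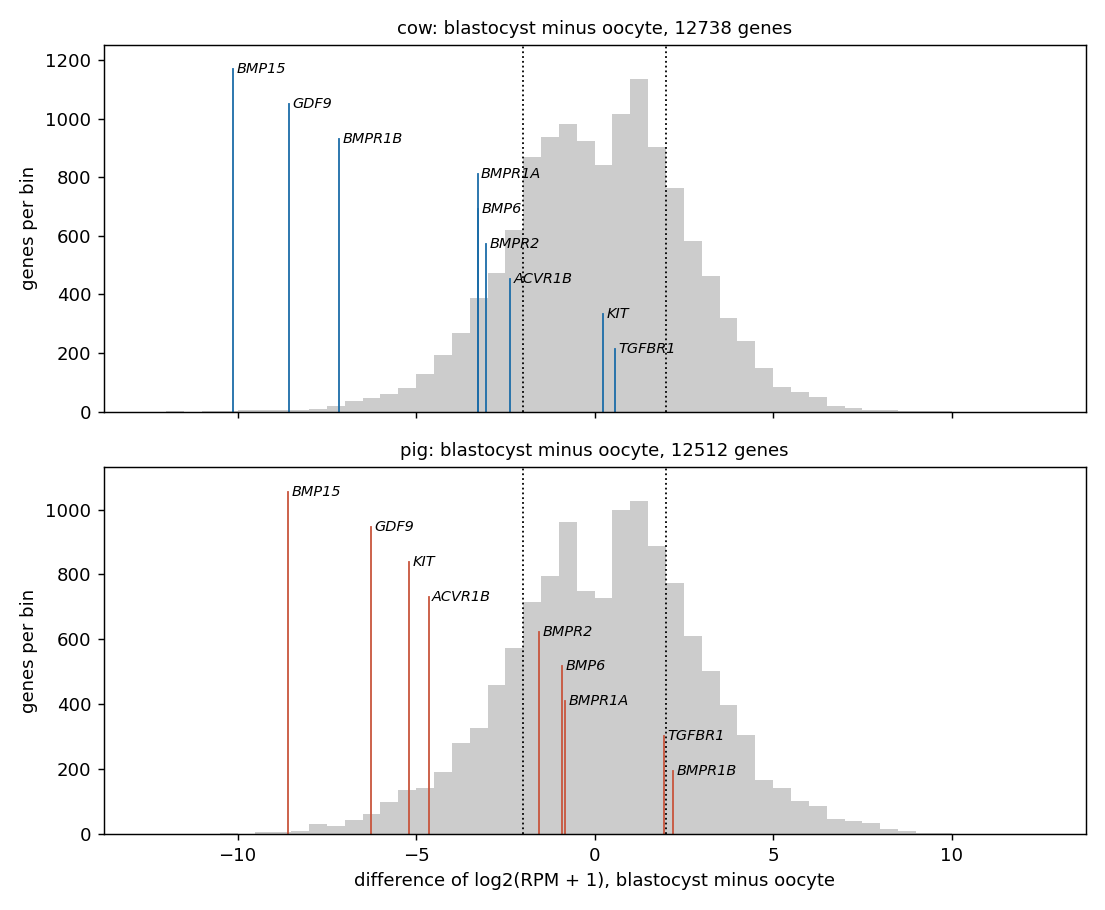
Histograms of the difference of log2(RPM + 1), blastocyst minus oocyte, over all compared genes in cow (top) and pig (bottom), with the members as labelled lines and dotted lines at -2 and 2. BMP15 and GDF9 lie in the far left tail of both panels, and BMPR1B lies at -7.16 in cow and at 2.20 in pig.

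GDF9 lies on cow chromosome 7 (46064180 to 46067119) and on pig chromosome 2 (135180426 to 135187026). All positions are those of the authors' tables, and the submitters' processing notes list the builds UMD3.1 and Sscrofa11.1. In cow GDF9 stood at 400.2 RPM in the oocyte library (383 to 418), 452 at the 2-4 cell stage, 44.7 at the 8-16 cell stage and 8.46 in the morula library (6.03 to 11.9). The cow blastocyst library had 0 reads, which makes its level at least 1892-fold lower than in the oocyte library. No 2 neighbours in the cow order had overlapping intervals, and the 8-16 cell library held 11.2% of the oocyte level. In pig GDF9 went from 1252 RPM (1215 to 1291) to 682 and 686 RPM at the 2-4 and 8-16 cell stages, which had overlapping intervals. The pig morula library had 63.9 RPM and the pig blastocyst library 15.3 RPM (11.8 to 19.8), 81.9-fold below the oocyte (exact 95% interval of the ratio 63.1 to 108).

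The pig GDF9 row overlaps UQCRQ, a subunit of respiratory complex III on the opposite strand, and how strand was handled is not stated. Pig UQCRQ stood at 7.40 RPM in the oocyte library, 1.69, 0.948 and 15.3 RPM in the next 3 libraries and 69.98 RPM in the blastocyst library. Reads of the 2 genes cannot be told apart where they overlap, which bears most on the 57 reads of GDF9 in the pig blastocyst library. The cow GDF9 row overlaps no other row.

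BMP15 is X-linked in both species (cow X, 93971184 to 93977809; pig X, 44613122 to 44619398) and overlaps no other row in either table. In cow it stood at 1181 RPM in the oocyte library (1151 to 1211), 1399 at the 2-4 cell stage, 404 at the 8-16 cell stage and 46.2 in the morula library (39.9 to 53.4). The cow blastocyst library had 0 reads, at least 5581-fold below the oocyte library. Pig BMP15 stood at 2361 RPM (2310.2 to 2414), then at 1648 and 1476 RPM, and at 79.6 RPM in the morula library. The pig blastocyst library still had 19 reads, or 5.09 RPM (3.26 to 7.96), 464-fold below the oocyte library (exact interval 297 to 770.4). No neighbours in the order of the stages had overlapping intervals in either species. The cow 8-16 cell library thus held 34.2% of its oocyte level of BMP15, and the pig 8-16 cell library 62.5%.

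**Figure D2:**
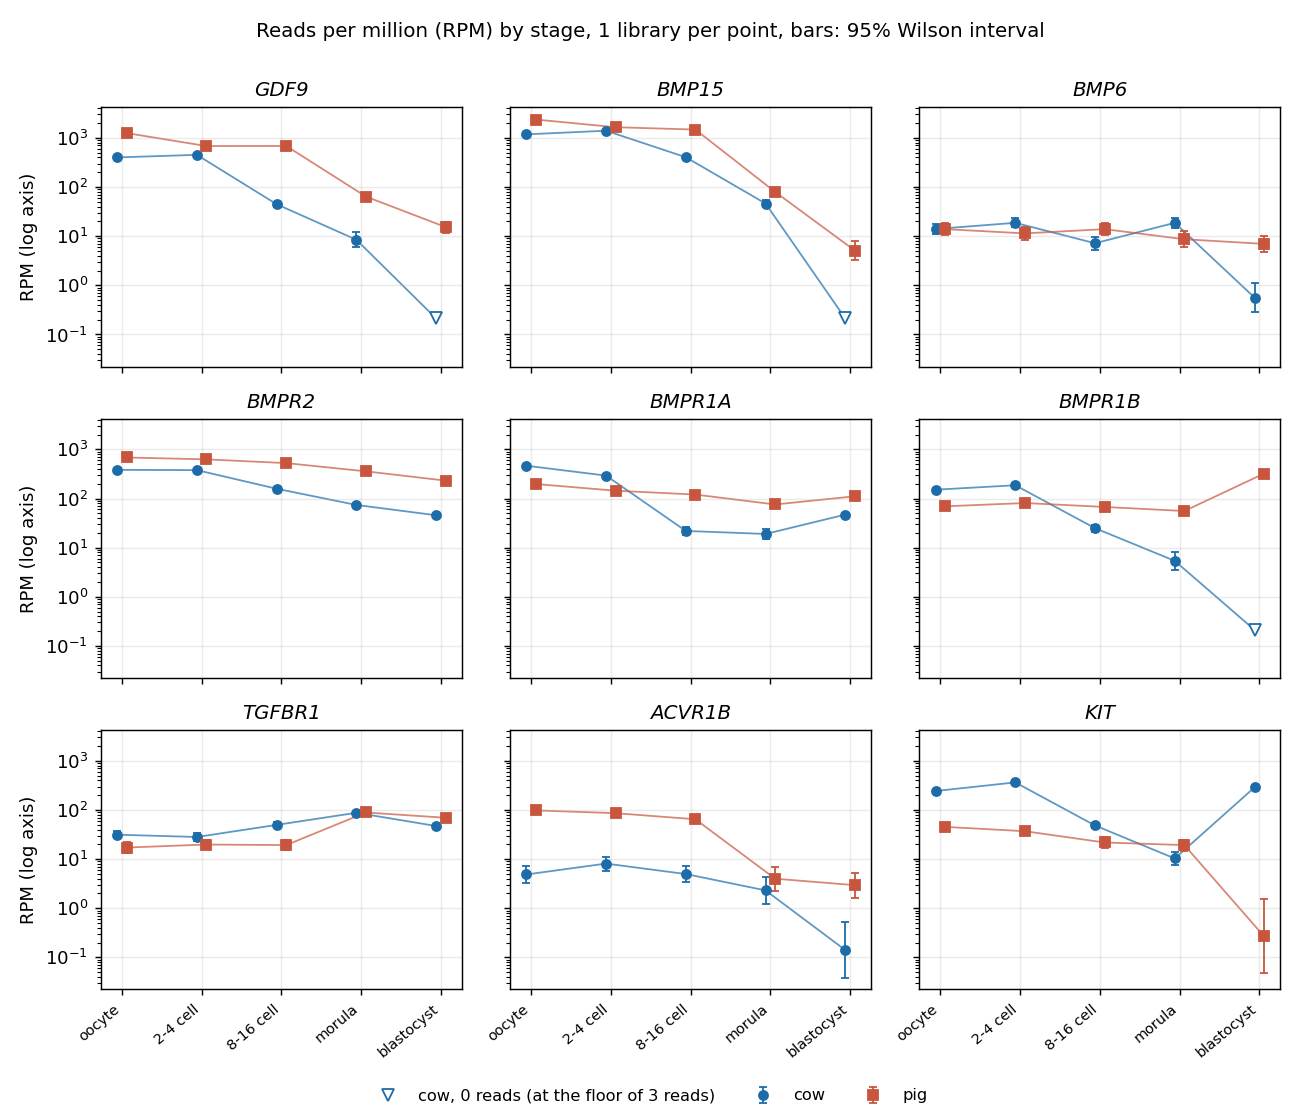
RPM on a log axis by stage for 9 members in cow (circles) and pig (squares), 1 library per point, with 95% Wilson intervals as bars and open triangles for 0 reads, drawn at the floor of 3 reads. GDF9 and BMP15 reach 0 reads at the cow blastocyst and 15.3 and 5.09 RPM at the pig blastocyst. KIT and BMPR1B lie furthest apart between the species at the blastocyst, and BMPR1B already differs at the morula (5.39 RPM in cow, 55.6 RPM in pig).

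BMP6, a ligand that BMPR1A, BMPR1B and ACVR1 can bind, had far fewer reads than GDF9 and BMP15 in the oocyte libraries. At the blastocyst BMP6 had 8 reads in cow, where GDF9 and BMP15 had 0. In the pig blastocyst library BMP6 had 26 reads, beside 57 of GDF9 and 19 of BMP15. In cow it stood at 14 RPM in the oocyte library (69 reads), 18.7 at the 2-4 cell stage and 7.18 at the 8-16 cell stage. The cow morula library had 18.7 RPM (14.9 to 23.5) and the cow blastocyst library 0.564 RPM (0.286 to 1.11). The cow oocyte, 2-4 cell and morula intervals overlapped, and the 8-16 cell library lay below them. The cow blastocyst level was 24.8-fold below the oocyte level (exact interval 11.9 to 59.8), on 8 reads. With a pseudocount of 5 RPM in place of 1 the cow difference of BMP6 was -1.77 rather than -3.26 and was no longer called. In pig BMP6 stayed between 6.97 and 13.9 RPM, and each pair of neighbours in the order of its 5 levels had overlapping intervals. The pig oocyte (10.5 to 18.5) and blastocyst (4.76 to 10.2) intervals did not overlap. Their ratio was 1.996 (exact interval 1.21 to 3.36), which was not called. The pig row of BMP6 overlaps TXNDC5 on the other strand, at 12.6 RPM in the blastocyst library and at most 2.90 RPM in the others.

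FGF8, which in mouse oocytes acts with BMP15 on cumulus cell glycolysis, had 0 reads in 4 of 5 cow libraries and in all 5 pig libraries. The cow 2-4 cell library had 1 read. Zero reads allow up to 0.609 RPM in the cow oocyte library and up to 0.888 RPM in the pig oocyte library, so expression below these levels was not detectable.

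BMPR2, the type II receptor that BMP15 and GDF9 share, was lower at each stage after the 2-4 cell stage than at the one before it in both species. In cow its levels were 383 RPM in the oocyte library (366 to 401), 378, 158 and 73.9 RPM in the next 3 and 45.6 RPM (42.2 to 49.3) at the blastocyst. Only the cow oocyte and 2-4 cell intervals overlapped. In pig they were 683 RPM (656 to 711), 626, 525, 357 and 231 RPM (216 to 247), with no overlap between neighbours. The first pig step differed by -0.13 and took the other sign when scaled to gene reads outside the mitochondrial genome (0.04) or by the median (0.21). The blastocyst level was 8.40-fold below the oocyte level in cow (exact interval 7.68 to 9.20), which was called, and 2.96-fold below it in pig (2.74 to 3.21), which was not.

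BMPR1A and BMPR1B are the type I receptors of the BMP branch. BMPR1A in cow stood at 465 RPM in the oocyte library (446 to 484), 292 at the 2-4 cell stage and 21.9 at the 8-16 cell stage. The cow morula had 18.98 RPM (15.1 to 23.8) and the cow blastocyst 47.03 RPM (43.6 to 50.7). Its lowest levels were thus at the 8-16 cell stage and morula, with overlapping intervals, and the blastocyst lay above both. The fall from the 2-4 to the 8-16 cell stage was 13.3-fold (exact interval 11.05 to 16.2), at percentile 0.766 of all compared genes at that step. In pig BMPR1A went from 197 RPM (183 to 213) through 144, 120.3 and 75.6 to 111 RPM (101 to 122), which was no called change at any step.

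BMPR1B was the member called in opposite directions in cow and pig from oocyte to blastocyst. In cow (chromosome 6, 30798831 to 30850160) it stood at 151 RPM in the oocyte library (141 to 163), 186 at the 2-4 cell stage, 24.9 at the 8-16 cell stage and 5.39 at the morula (3.52 to 8.23), with 0 reads at the blastocyst. The cow fall was at least 715-fold. In pig (chromosome 8, 124535864 to 124841274) it stood at 69.3 RPM (60.95 to 78.7), 80.9, 67.3 and 55.6 RPM in the first 4 libraries and at 322 RPM in the blastocyst library (304 to 340.5). The first 4 pig levels had overlapping intervals between neighbours, and the blastocyst level was 4.64-fold above the oocyte level (exact interval 4.03 to 5.37). The annotated span of the gene is 51330 bases in the cow table and 305411 bases in the pig table, and no other row overlaps it in either. The difference between the species was not tested, since each has 1 library per stage.

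TGFBR1, the type I receptor that GDF9 uses, was the member with its highest level in the morula library in both species, with no overlapping interval. In cow it stood at 31.4 RPM in the oocyte library (26.9 to 36.8), 28.2, 49.7 and then 87.7 RPM in the morula library (78.9 to 97.5), and at 47.2 RPM in the blastocyst library (43.8 to 50.96). Cow oocyte and 2-4 cell intervals overlapped, as did those of the 8-16 cell stage and the blastocyst. The unnamed gene on the other strand that overlaps cow TGFBR1 had 0 reads in the oocyte and blastocyst libraries. Its levels at the stages between are not given, so its part in the morula value was not tested. Pig TGFBR1 stood at 17.2 RPM in the oocyte library (13.3 to 22.2) and at 19.8 and 19.3 RPM at the next 2 stages. The pig morula had 88.9 RPM (78.9 to 100.2) and the pig blastocyst 69.4 RPM (61.5 to 78.4). These pig intervals lay close together, with a ratio of 1.28 (exact interval 1.08 to 1.53). The pig step to the morula was 4.62-fold (exact interval 3.48 to 6.20) and was called, but its difference of 2.15 was 1.91 with median scaling and 1.95 with a pseudocount of 5 RPM. From oocyte to blastocyst the pig difference was 1.95, just under the threshold, and reached 2.08 when scaled to gene reads outside the mitochondrial genome.

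ACVR1B, a type I receptor for activins and NODAL, had its lowest level in the blastocyst library of each species. In cow it stood at 4.87 RPM in the oocyte library (3.27 to 7.24), 8.11, 4.97 and 2.31 RPM in the next 3, and 2 reads or 0.141 RPM in the blastocyst library (0.0387 to 0.514). Neighbouring cow levels overlapped down to the morula. The cow ratio of oocyte to blastocyst was 34.5 with a wide interval of 8.57 to 301, and the difference of -2.36 became -0.94 with a pseudocount of 5 RPM, no longer called. Pig ACVR1B stood at 98 RPM in the oocyte library (87.99 to 109), at 86.02 and 64.7 RPM at the next 2 stages, at 3.996 RPM at the morula (2.29 to 6.99) and at 2.95 RPM at the blastocyst, where it overlapped the morula. The pig fall was at the step to the morula, 16.2-fold (exact interval 9.08 to 31.9).

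KIT, the receptor tyrosine kinase of the oocyte surface, lies on cow chromosome 6 (71796318 to 71917431) and pig chromosome 8 (41402322 to 41492977). In cow it stood at 243 RPM in the oocyte library (229.8 to 257), 364 at the 2-4 cell stage, 48.4 at the 8-16 cell stage, 10.3 at the morula (7.53 to 13.97) and 288 at the blastocyst (279 to 297), with no overlap between neighbours. It thus fell at 2 steps, the later of which was not called with a pseudocount of 5 RPM, and then rose 28.1-fold from morula to blastocyst (exact interval 20.6 to 39.3), at percentile 99.2 of compared cow genes. Pig KIT stood at 45.3 RPM in the oocyte library (38.7 to 53.1) and at 36.97, 21.8 and 19.3 RPM at the next 3 stages, and the blastocyst library had 1 read. The oocyte and 2-4 cell intervals overlapped in pig, as did those of the 8-16 cell stage and the morula. The pig ratio of oocyte to blastocyst was 169 with an interval of 29.9 to 6716, and that of morula to blastocyst was 72.04 (12.4 to 2894).

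KITLG, its ligand, followed another course in the same libraries. In cow KITLG stood at 19.1 RPM in the oocyte library, 14.2 at the 2-4 cell stage, 284 at the 8-16 cell stage, 176 at the morula and 6.35 at the blastocyst. The cow ligand was therefore highest in the 2 libraries in which the receptor was lowest. Pig KITLG stood at 106, 35.8, 48.01 and 193 RPM at the first 4 stages and at 297 RPM at the blastocyst, where KIT had 1 read.

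The steps at which the members changed differed between cow and pig. From the oocyte to the 2-4 cell stage 0 of 9 were called in cow (0.374% of all compared genes, 0.178% lower and 0.196% higher), and likewise in pig 0 of 9 (5.43%, of which 2.17% lower and 3.26% higher). From the 2-4 to the 8-16 cell stage GDF9, BMPR1A, BMPR1B and KIT fell in cow, 4 of 9 (27.2% of all genes called, 14.6% lower and 12.6% higher), and 0 of 9 were called in pig (4.87%, 4.33% higher and 0.543% lower). BMP15 differed by -1.79 at that cow step and was not called. From the 8-16 cell stage to the morula GDF9, BMP15, BMPR1B and KIT fell in cow (11.8% called, 5.15% lower and 6.67% higher). With a pseudocount of 5 RPM GDF9, BMPR1B and KIT lost the call at that cow step (-1.89, -1.52 and -1.81). In pig GDF9, BMP15 and ACVR1B fell and TGFBR1 rose at that step (23.3% called, 11.3% lower and 12.04% higher).

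From the morula to the blastocyst GDF9, BMP15, BMP6 and BMPR1B fell and KIT rose in cow, 5 of 9 (23.4% called, 11.5% lower and 11.9% higher). Of these, GDF9 and BMPR1B lost the call with a pseudocount of 5 RPM (-1.41 and -1.04). In pig BMP15 and KIT fell and BMPR1B rose, 3 of 9 (27.6% called, 13.8% in each direction). Pig GDF9 lay at the threshold there, with -2 after rounding and no call, and was called in 3 of 8 alternatives. Over the 4 steps the members were called 13 times of 36 in cow, 12 of them lower, beside 16.1% of all gene comparisons (8.06% lower and 8.06% higher). In pig they were called 7 times of 36, 5 of them lower, beside 15.7% (7.13% lower and 8.54% higher). The cow count was 8 with a pseudocount of 5 RPM.

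**Figure D3:**
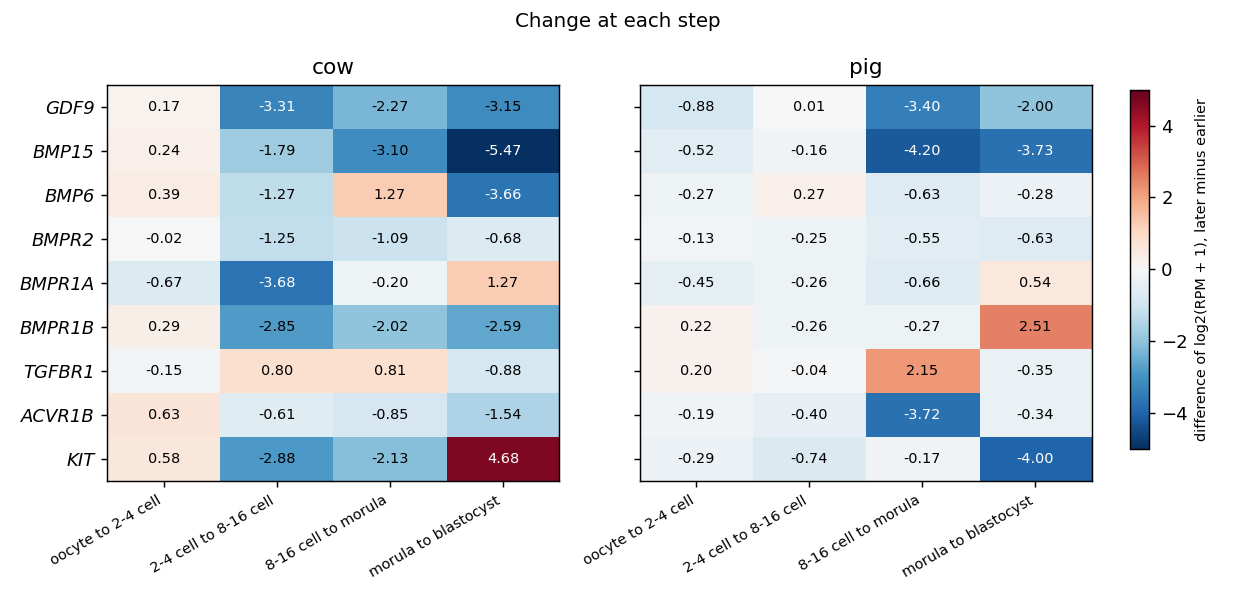
Difference of log2(RPM + 1), later minus earlier stage, of 9 members at the 4 consecutive steps in cow (left) and pig (right), blue for lower and red for higher. The first cow column and the first 2 pig columns are pale, and KIT at the last step is 4.68 in cow and -4 in pig.

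Ratios of reads of 2 genes within 1 library do not depend on how the library is scaled, and their change between stages does not depend on gene length. BMP15 reads per GDF9 read in cow were 2.95 in the oocyte library (exact 95% interval 2.80 to 3.11) and 3.1 at the 2-4 cell stage. The cow ratio was 9.03 at the 8-16 cell stage (7.90 to 10.4) and 5.45 in the morula library (3.75 to 8.17), so from the 2-4 to the 8-16 cell stage GDF9 went down by a larger factor than BMP15. In pig the ratio was 1.89 in the oocyte library (1.82 to 1.96), 2.42 and 2.15 at the next 2 stages, 1.24 at the morula (1.03 to 1.51) and 0.333 at the blastocyst (0.187 to 0.569). The pig blastocyst value rests on 19 and 57 reads, and GDF9 there shares its span with UQCRQ, as given above.

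Between the BMP type I receptors, BMPR1B reads per BMPR1A read went from 0.326 in the cow oocyte library (0.299 to 0.354) to 1.13 at the 8-16 cell stage (0.880 to 1.46), 0.284 at the morula (0.166 to 0.466) and 0 of 667 in the blastocyst library, which allows up to 0.00555. In pig this ratio went from 0.351 (0.301 to 0.408) to 0.736 at the morula (0.599 to 0.902) and 2.91 at the blastocyst (2.60 to 3.26). BMPR2 reads per TGFBR1 read, the receptor pair of GDF9, went from 12.2 in the cow oocyte library (10.3 to 14.5) to 0.842 in the morula library (0.717 to 0.988). In pig they went from 39.8 (30.7 to 52.6) to 4.01 in the morula library (3.51 to 4.61). That ratio was thus lower in the morula than in the oocyte library of both species, by the lower BMPR2 and the higher TGFBR1 together.

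**Figure D4:**
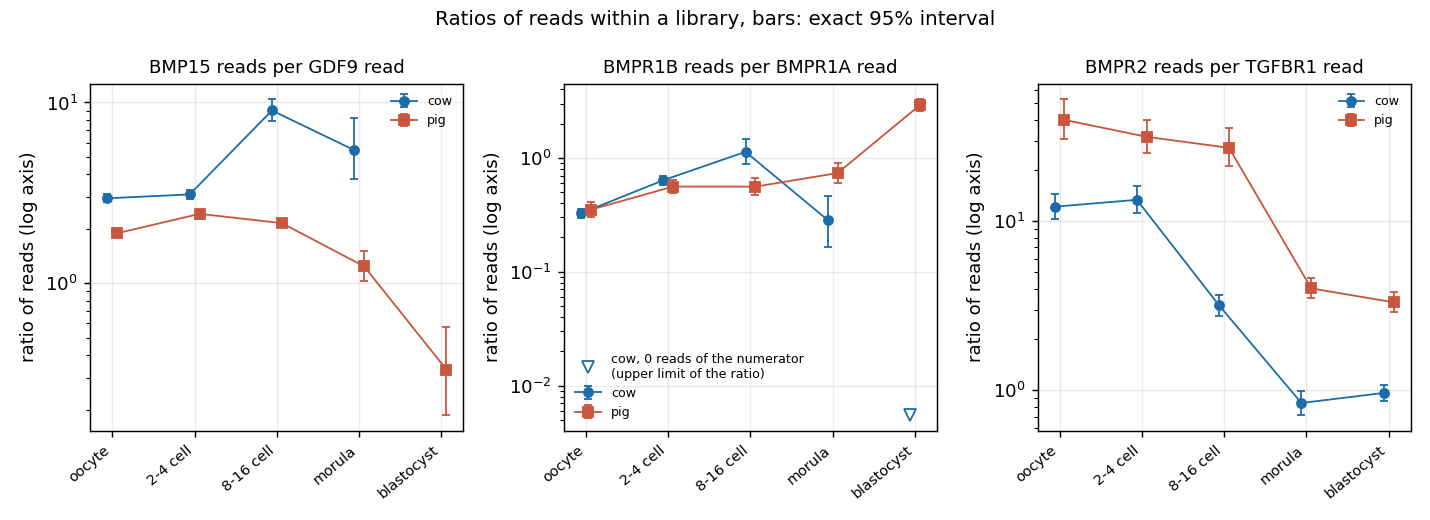
Ratios of reads within a library, on log axes, for BMP15 per GDF9, BMPR1B per BMPR1A and BMPR2 per TGFBR1 in cow (circles) and pig (squares), with exact 95% intervals as bars and an open triangle for the upper limit at 0 reads. BMPR1B per BMPR1A lies furthest apart between the species at the blastocyst, at 2.91 in pig and under 0.00555 in cow.

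Set side by side, 7 of the 9 comparable members had differences of the same sign in cow and pig from oocyte to blastocyst, and 68.4% of 8567 shared symbols did. The exceptions were BMPR1B (-7.16 in cow, 2.20 in pig) and KIT (0.24 in cow, -5.19 in pig). Of all shared symbols 3.03% were called in opposite directions, as BMPR1B was. GDF9 and BMP15 differed by -8.56 and -10.12 in cow and by -6.27 and -8.60 in pig, and ACVR1B by -2.36 and -4.65. BMP6, BMPR2 and BMPR1A were called lower in cow alone (-3.26, -3.04 and -3.28), with pig differences of -0.90, -1.56 and -0.83, a contrast that was not tested.

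Genes with a pattern like 3 of the members were sought among 6279 shared symbols that reached 10 RPM somewhere in each species. The measure was the root mean square of the 8 deviations in log2(RPM + 1) change from the oocyte library, 4 stages in each species. Nearest to GDF9 were ACCSL (0.66), LINGO2 (0.70) and RGS16 (0.74), a regulator of G-protein signalling. Nearest to BMP15 were WEE2 (1.01), a kinase that holds oocytes in meiotic arrest, BTG4 (1.13), an adaptor for shortening the tails of maternal mRNA, and GDF9 itself (1.20). BMP15 was in turn rank 27 for GDF9. WEE2 went from 698 to 76.2 RPM between the cow oocyte and 8-16 cell libraries and from 1976 to 1313 RPM between those of pig.

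Nearest to KIT were MAPK4 (0.53), an atypical MAP kinase, ACYP2 (0.85) and CHRNA1 (0.93), a subunit of the muscle acetylcholine receptor. MAPK4 stood at 123 RPM in the cow oocyte library, 95.5, 15.5 and 3.85 RPM in the next 3 and 75.7 RPM at the blastocyst. Pig MAPK4 stood at 70.8, 51.2, 41.4 and 31.6 RPM at the first 4 stages and at 1.07 RPM at the blastocyst. MAPK4 shared with KIT the return at the cow blastocyst and the low level at the pig blastocyst. It was selected over these same values, so this likeness follows from the selection.

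Of 54 other genes of these pathways, 35 could be compared in cow, of which 9 rose and 8 fell from oocyte to blastocyst. In pig 31 could be compared, of which 9 rose and 5 fell. These shares, 48.6% and 45.2%, lie near those of all genes given above (40.2% and 45.2%). With a pseudocount of 5 RPM the calls went from 17 to 11 in cow and from 14 to 9 in pig. Calls of single genes of these pathways are given for the main setting only. Called the same way in both species were SMAD5 and the oocyte regulators LHX8 and NOBOX (lower), ID3 (lower), and SMAD6, PCSK5, PCSK7 and FGFR3 (higher).

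Among the Smads, SMAD5, which carries the BMP15 signal, fell 23.6-fold in cow (exact interval 20.7 to 26.9), from 437 to 18.5 RPM, and 6.95-fold in pig (6.05 to 8.01), from 439.7 to 63.3 RPM. SMAD1, of the same branch, was not called in either species. It stood at 110.3 and 139 RPM in the cow oocyte and blastocyst libraries and at 8.88 and 9.12 RPM in those of pig. Between these stages cow SMAD1 was lower, at 78.6, 6.63 and 28.7 RPM in the 2-4 cell, 8-16 cell and morula libraries. SMAD6, an inhibitor of the BMP branch, rose in cow from 3 reads to 13.8 RPM, a ratio of 22.7 with an interval of 7.66 to 111. In pig SMAD6 rose at least 12.7-fold, with 0 reads in the oocyte library and 11.3 RPM in the blastocyst library. SMAD7, another inhibitory Smad, had 0 reads and 24.3 RPM in the same libraries of cow and rose at least 39.9-fold. In all, 2 of 8 Smads rose and 3 fell in cow (SMAD2, SMAD3 and SMAD5), and 1 of 5 rose and 1 fell in pig. Over all compared genes 21.8% were called higher and 18.4% lower in cow, and 25.98% and 19.2% in pig. With so few Smads, a difference from these shares was not tested. SMAD2, which carries the GDF9 signal, fell in cow from 284 to 67.5 RPM, while its pig levels of 66.6 and 153 RPM were no called change. The ID genes are targets of the BMP branch: cow ID3 fell from 43.8 RPM to 3 reads, pig ID3 fell from 125 to 2.68 RPM, and cow ID2 rose from 1.01 to 19.2 RPM.

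Proprotein convertases cut the precursors of such ligands. PCSK5 rose 10.7-fold in cow (exact interval 8.53 to 13.6), from 15.8 to 169 RPM, and 5.88-fold in pig (5.14 to 6.75), from 73.4 to 432 RPM. PCSK7 rose in cow from 1.42 to 41.8 RPM and in pig from 1.18 to 25.2 RPM. FURIN stood at 48.7 and 30.95 RPM in cow, no called change, and rose in pig from 24.6 to 117 RPM. At the 2-4 cell, 8-16 cell and morula stages FURIN stood at 62.2, 9.76 and 6.15 RPM in cow. In pig it stood at 2.42, 5.05 and 0.999 RPM at these stages. Of the 4 convertases 2 rose in cow and 3 in pig, and 0 fell, where 21.8% and 25.98% of all compared genes were called higher. The list medians were 1.35 and 2.37, beside 0.18 and 0.43 over all genes.

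Of other receptors 1 of 6 rose in cow, where 21.8% of all compared genes were called higher. This was ACVR2B, a type II receptor for activins, which went from 3.25 RPM through 9.69, 83.2 and 32.3 RPM to 26.02 RPM. ACVR2B in pig was not analysed here, and 0 of the 4 receptors compared in pig were called, beside 45.2% of all compared pig genes. Of other ligands BMP4 fell in cow, from 10.5 to 1.06 RPM after 50.4 RPM at the 8-16 cell stage, and stood at 13.03, 54.3 and 29.5 RPM in the oocyte, 8-16 cell and blastocyst libraries of pig. TGFB2 and TGFB3 rose in pig, from 1 and 2 reads to 11.3 and 7.24 RPM. Among the antagonists BAMBI, a decoy receptor, rose in cow from 3.04 to 16.9 RPM. In pig GREM1, which binds BMPs, fell at least 21.7-fold to 0 reads, from 17.5 RPM, and FST, which binds activins, rose from 1.78 to 11.5 RPM.

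Of the FGF receptors, through which FGF8 would act, FGFR3 and FGFR4 rose in cow from 0 reads to 5.50 and 20.8 RPM, at least 9.04-fold and 34.2-fold. In pig FGFR2 rose from 10.95 to 69.98 RPM and FGFR3 at least 4.83-fold, to 4.29 RPM. Of the oocyte transcription factors, NOBOX had 15.8 RPM in the cow and 21.3 RPM in the pig oocyte library and 0 reads in both blastocyst libraries, so it fell at least 74.8-fold in cow and 26.5-fold in pig. LHX8 fell in cow from 164 to 4.72 RPM, and in pig at least 239-fold to 0 reads. FIGLA fell at least 181-fold in cow, and stood at 4 reads in the pig oocyte library. The list median was -4.85 in cow and -4.17 in pig (-3.63 with genes at or under the floor set to it), over 3 genes in each, beside the same medians of all genes.

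**Figure D5:**
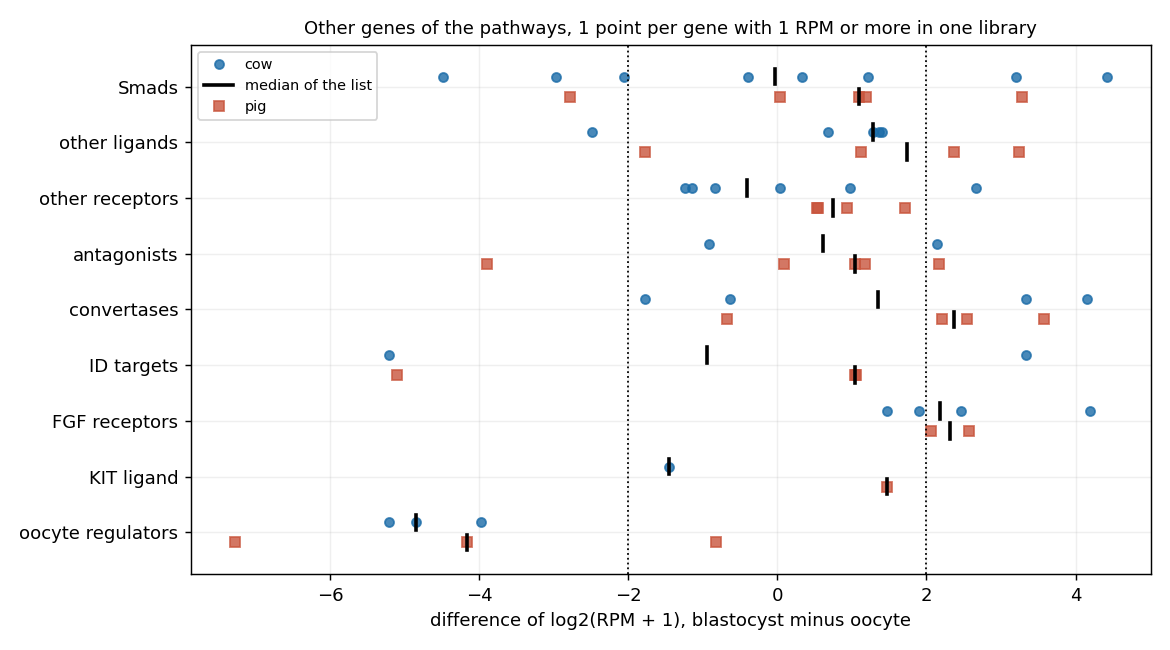
Difference of log2(RPM + 1), blastocyst minus oocyte, of the other genes of the pathways by list, 1 point per compared gene, cow as circles and pig as squares, black bars at list medians and dotted lines at -2 and 2. The oocyte regulators lie to the left in both species, and PCSK5 and PCSK7 lie above 2 in both.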

How the data were processed

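Per the labels' protocols, RNA was extracted with the PicoPure kit and amplified with the Ovation RNA-Seq V2 system, and library PCR ran for 8 cycles. No molecular identifiers are described, so reads are not independent molecules. The submitters' processing notes list Trim Galore 0.6.4, HISAT2 2.1.0 and the builds UMD3.1 and Sscrofa11.1. Counting method, strand and duplicates are not given in the sources used here. The deposited values are log2 RPM: every value is a whole multiple of 1 read of its library (tolerance 0.01 of a read, wider in proportion for high counts), and 0 reads are written as 0.9 of a read. Reads were recovered from them. Differences are of log2(RPM + 1) within a species, with 0 reads kept as deposited, over all gene rows. With 1 library per group no test was run. Levels have Wilson intervals and ratios exact conditional binomial intervals (Python 3.11.15, scipy 1.17.1). The scripts were tested on simulated data. The members and lists were chosen with earlier results of these data known. Named are all members, list genes called in both species, up to 3 more per list and species with the largest change, and the 3 genes nearest GDF9, BMP15 and KIT. The rest of the list genes are given as counts, and KITLG and the GDF9 and BMP6 neighbours were named for their relation to a member. SMAD4, SMAD7 and ACVR2B in pig were not analysed here. Alternatives changed the pseudocount, scaling, depth, minimum, threshold and repeated rows and, chosen after seeing the data, set 0 reads to 0, and were also run on the single steps and the pathway lists.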

Additional observations from a re-analysis of the deposited data

Results flagged for a closer look

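Called changes of opposite direction in cow and pig were found for 2 members. From oocyte to blastocyst 3.03% of 8567 shared symbols were called in opposite directions. That share is not given from morula to blastocyst, where 23.4% of compared cow genes and 27.6% of compared pig genes were called. BMPR1B differed by -7.16 in cow and by 2.20 in pig from oocyte to blastocyst, and by -2.59 in cow and 2.51 in pig from morula to blastocyst, in log2(RPM + 1). KIT differed by 4.68 in cow and by -4 in pig from morula to blastocyst. These differences between the species were not tested, since each stage had 1 library. The pig value of KIT rests on 1 read in the blastocyst library, and the cow values of BMPR1B on 0 reads there. With a pseudocount of 5 RPM the cow difference of BMPR1B from morula to blastocyst was -1.04, which is not called.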

How the results depend on the processing

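Of 90 differences of single members between stages, 32 were called, and 0 of these changed sign under 8 alternatives each, while 8 lost the call under at least 1. Of 58 that were not called, 3 gained a call and 9 changed sign. With a pseudocount of 5 RPM, member calls over the 4 cow steps went from 13 to 8, calls in the pathway lists from 17 to 11 in cow and from 14 to 9 in pig. With a threshold of 1 they were 20, 27 and 24. Calls of members from oocyte to blastocyst ranged from 5 to 7 in cow and in pig, and the count of members of the same sign in both species was 7 in each of its alternatives. Scaling to gene reads outside the mitochondrial genome moved the median difference of all cow genes from oocyte to blastocyst by 0.38, quantile normalisation moved that of pig by -0.31, and median scaling moved the first step by -0.28 in cow and 0.31 in pig. Some uncalled differences of members at the first step, such as those of cow GDF9 and BMP15, took the other sign with median scaling. No paired analysis was possible because each stage had 1 library per species. In the shallowest library, of 3002751 reads, the floor of 3 reads is 0.999 RPM, and the Wilson upper limit at 0 reads is 1.28 RPM.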
